A study of Mus musculus with 10 samples.

Results

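The genes described here encode the machinery that moves newly made proteins into the endoplasmic reticulum (ER) and on through the Golgi apparatus. They were chosen by a rule on gene names, as the rows of the deposited expression table whose gene symbol belongs to the signal recognition particle (Srp) and its receptor, the translocon and its partners (Sec61, Sec62, Sec63, Ssr), the signal peptidase (Spcs, Sec11a), the COPII coat (Sec13 to Sec31), the COPI coat (Cop), the p24 cargo receptors (Tmed), the TRAPP and COG tethers, the golgins (Golga, Golgb) or the Arf GTPases. This gave 77 of the 6147 genes in the table, and 0 matching genes had to be left out because the authors had filed them as translation-associated. All 77 passed the minimum mean of 1 TPM used for testing. TPM is a gene's share of all transcripts after division by gene length, scaled to a fixed total, so levels of different genes can be set side by side. The tissue was neocortex from mice of the outbred strain CD1, all wild type, with no treatment or mutation in any group. It was taken at 5 ages, which are days of gestation (E12.5, then E14, E15.5, and last E17) and birth (P0), and each age has 2 libraries, 10 in all. The submitters call them biological duplicates, but the labels do not say that the 2 libraries of a stage came from separate animals, so the p-values measure only the spread between these samples.

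Proteins destined for the membrane or for secretion are recognised while still being made, when the signal recognition particle binds their signal peptide and docks the ribosome at its receptor on the ER. The nascent chain enters through the Sec61 channel, and signal peptidase removes the signal peptide. COPII-coated vesicles then carry cargo from the ER towards the Golgi, with p24 proteins acting as cargo receptors and membrane organisers. COPI-coated vesicles, recruited by Arf GTPases, return proteins to the ER and move them between Golgi cisternae, while TRAPP, COG and the golgins catch incoming vesicles. In the developing cortex this route supplies the receptors, adhesion molecules, channels and extracellular matrix that progenitors and growing neurons place at their surface.

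Of the neocortex markers looked up, 8 of 11 were in the table, and their summed level lay between 1030 and 1710 TPM in every library. Markers of proliferating progenitors (12 of 13 in the table) summed to 1530 and 1600 TPM in the E12.5 libraries and to 175 and 178 TPM at P0. Markers of maturing neurons (13 of 13) went from 1920 and 2000 TPM to 10400 and 10500 TPM. Markers of tissue around the cortex were present at the early stages. Embryonic globins (2 of 9 erythroid markers listed) summed to between 1880 and 4490 TPM at E12.5 and E14 and to at most 9.12 TPM afterwards. Choroid plexus genes (2 of 6) summed to between 303 and 1520 TPM and then to at most 5.26 TPM, and meningeal genes (5 of 6) to between 106 and 173 TPM and then to at most 6.63 TPM. Astroglial markers (6 of 7) summed to between 401 and 617 TPM. The vascular marker Cdh5 (1 of 7) was at 13.9 and 15.3 TPM at E12.5, 9.26 and 9.78 at E14, 1.18 and 1.34 at E15.5, 3.30 and 2.08 at E17, and 1.28 and 1.02 at P0. The microglial marker C1qb (1 of 7) lay between 4.66 and 8.93 TPM, and 0 of 7 oligodendrocyte markers were in the table. In bulk tissue, fewer cells of a type and less RNA per cell cannot be told apart. At E17 the 2 libraries stood apart from each other. The 2 E17 libraries differed with an SD of 0.285 on the log2 scale over 6048 genes, against 0.088 to 0.176 at the other stages. This difference followed coding length over all 6048 genes (Pearson r 0.56 with log2 coding length, within 1 pair of libraries and across genes that are not independent) and over the 77 secretory genes (r 0.73), and 50 of the 77 were higher in replicate 1. A difference between 2 libraries cannot say which of them deviates. Several steps into and out of E17 are therefore also given with each of them left out in turn.

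**Figure D1:**
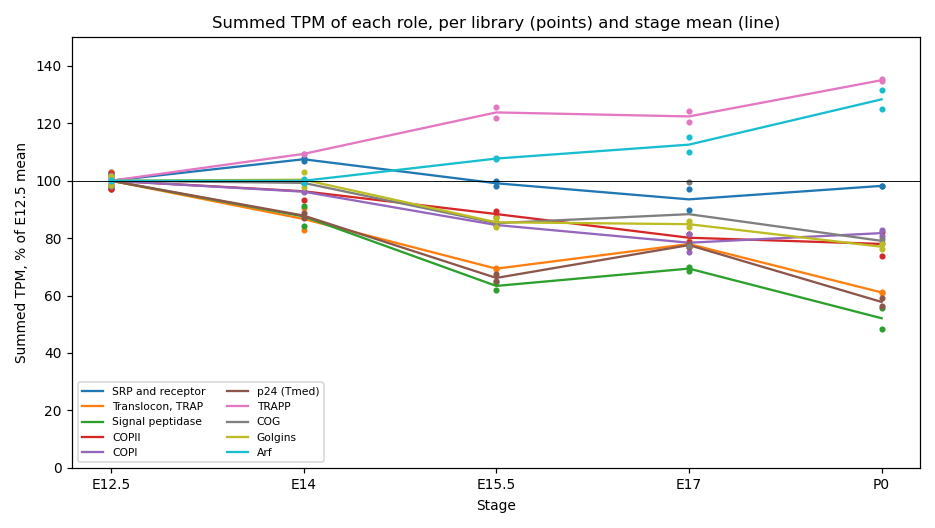
Summed TPM of 10 functional groups of secretory genes in each library, as a percent of the E12.5 mean of that group, by developmental stage. Points are single libraries and lines join the stage means. TPM are as deposited, and abundant genes weigh most in each sum. The signal peptidase, p24 and translocon groups end at or below 61.1% of their E12.5 mean, while TRAPP and Arf end at 125.1% or above.

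Over the whole span from E12.5 to P0, 4 of 7 translocon genes, 3 of 4 signal peptidase genes and all 6 p24 genes fell. Over all genes tested 51.0% fell and 27.1% rose, so the translocon count lies near the share of all genes. Of the 13 TRAPP genes 8 rose and 3 fell, and of the 6 Arf genes 4 rose and 2 fell. Of the 6 targeting genes 2 fell and 4 did not pass. Sums over the groups, as deposited, show the size of this, but abundant genes such as Ssr3 and Srp14 weigh most in them. The fall of Srpr is therefore hardly seen in the targeting sum. Median-of-ratios scaling divides each library by a factor, 1.093 and 1.111 at E12.5 and 0.899 and 0.921 at P0. Under it every P0 percent of the E12.5 mean would be higher. The 7 translocon genes together stood at 61.1% and 61.0% of their E12.5 mean in the 2 P0 libraries, the 4 signal peptidase genes at 55.7% and 48.5%, and the 6 p24 genes at 59.2% and 56.3%. The 6 targeting genes stood at 98.3% and 98.1%. The 13 TRAPP genes stood at 135.4% and 134.6%, and the 6 Arf genes at 131.6% and 125.1%. All 77 genes together moved little, from 0.964% and 0.951% of all TPM at E12.5 to 0.915% and 0.889% at P0. The total share moved little while the groups moved apart.

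In the test across the 5 stages (limma, F test on log2(TPM + 1), Benjamini-Hochberg adjustment over all genes tested, called under 0.05), 59 of the 77 genes changed. The background was 82.9% of the 6048 genes tested, so a change with stage was no more common here than elsewhere. Between E12.5 and P0, limma called 60 of 77 genes, or 77.9%, against a background of 78.2%. Of these, 16 rose (background 27.1%) and 44 fell (background 51.0%), and 17 did not pass. The 2 P0 libraries lay wholly above the 2 E12.5 libraries for 19 genes (background 32.5%) and wholly below them for 53 (background 58.4%). They overlapped for Srp19, Sec61g, Ssr4, Spcs1 and Sec31a. The median change was -0.33 on the log2 scale, against -0.27 over all genes tested. The direction split leans on how libraries are scaled. With the deposited TPM, 26.7% of the called secretory genes were higher at P0. Under median-of-ratios scaling, which moves the median of all genes from -0.27 to -0.01, 23 rose and 27 fell (46.0% higher), and under quantile normalization 18 rose and 31 fell (36.7% higher). Changes of at least 1 on the log2 scale were fewer. Trappc2l and Arf3 rose by that much (2 genes, background 11.1%), and 10 fell (background 20.0%): Srpr, Sec61a1, Sec63, Spcs2, Spcs3, Sec11a, Sec23b, Sec23ip, Tmed5 and Golga4.

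**Figure D2:**
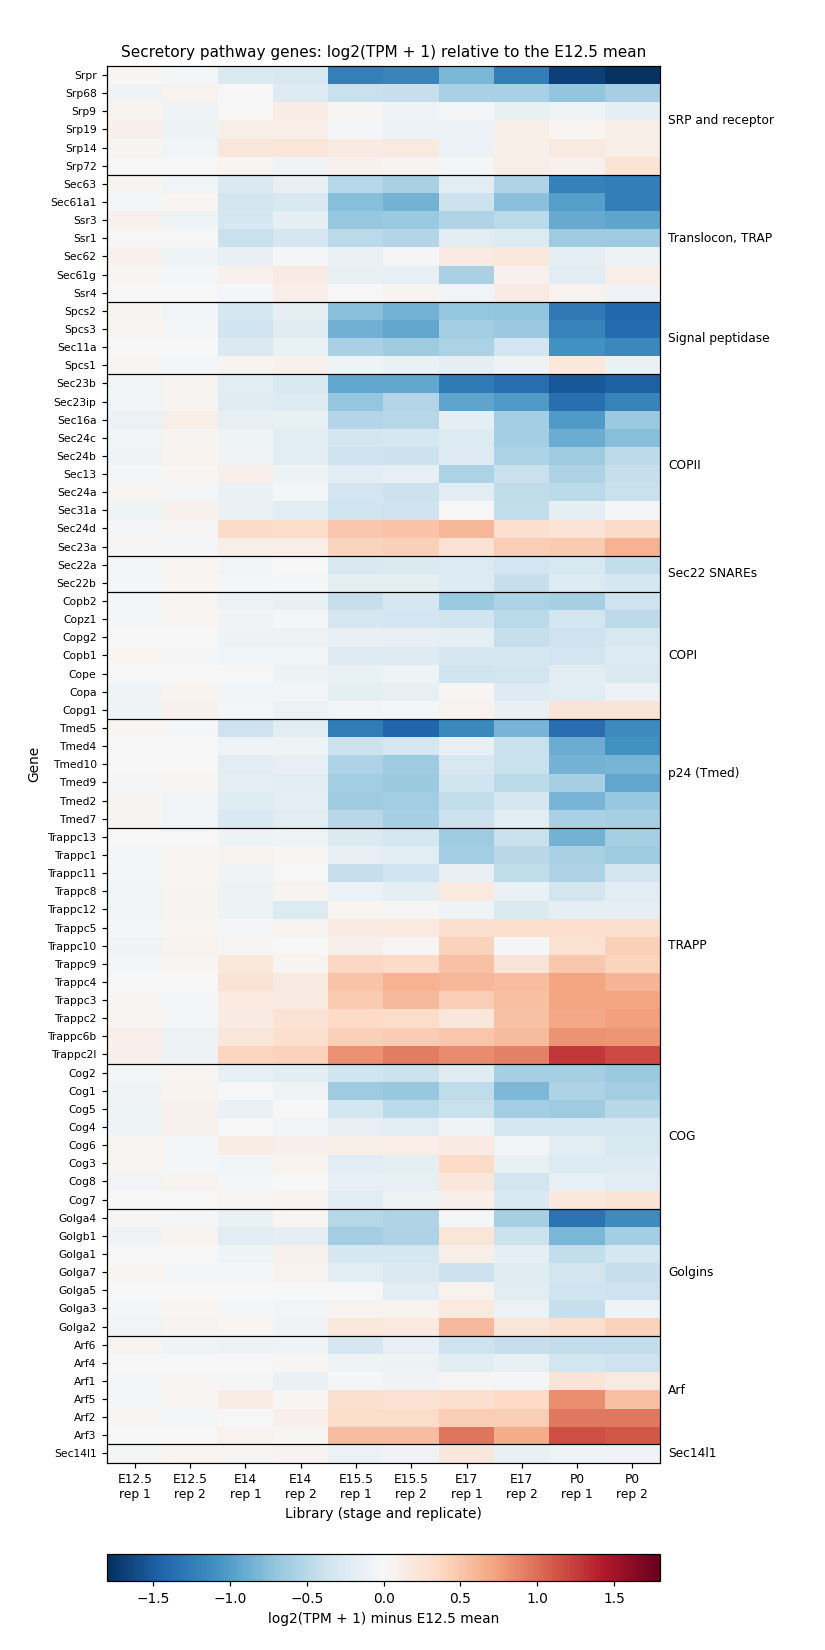
Change of each of the 77 secretory genes in each library relative to its own E12.5 mean, on the log2(TPM + 1) scale, with genes ordered by functional group and libraries by stage. Blue is lower and red higher than at E12.5. All 6 p24 rows and 3 of 4 signal peptidase rows are blue at P0, and 4 of 6 Arf rows are red.

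**Figure D3:**
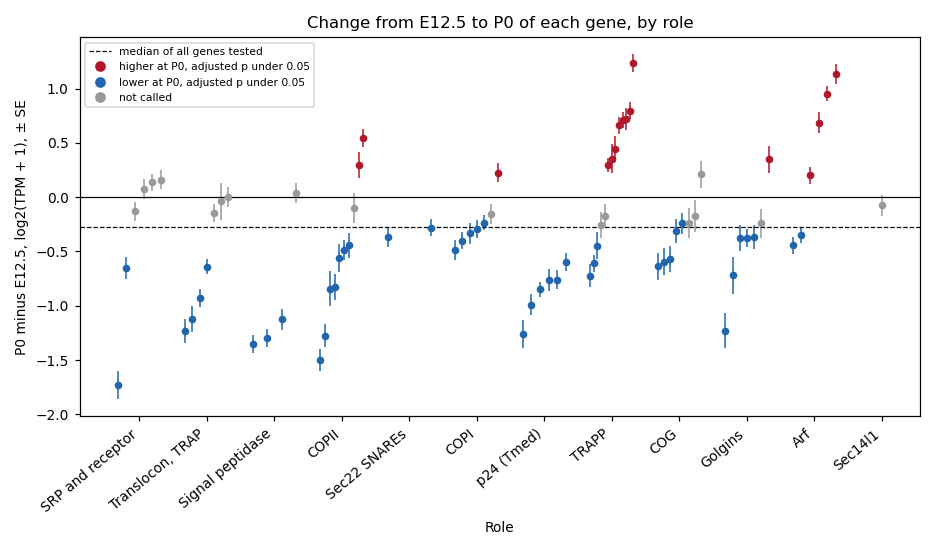
Change from E12.5 to P0 on the log2(TPM + 1) scale for each secretory gene, by functional group, with bars of 1 SE. Red and blue genes passed the limma test, grey ones did not, and the dashed line is the median of all genes tested (-0.27). The 6 p24 genes all lie below 0, and the TRAPP genes lie on both sides.

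Of the 6 targeting genes, 5 encode protein subunits of the particle and 1 its receptor, so the receptor is represented by a single gene. Srpr, which encodes the alpha subunit of the signal recognition particle receptor, fell more than any other secretory gene, while 4 of the 5 genes for protein subunits of the particle did not pass the test. Srpr (GRCm38 chr9:35200175-35247973) measured 39.0 and 37.8 TPM at E12.5, 31.8 and 31.3 at E14, 15.8 and 16.3 at E15.5, 21.3 and 15.7 at E17, and 11.3 and 10.5 at P0. Its E12.5 libraries were the highest and its P0 libraries the lowest, with no overlap. The change was -1.73 (SE 0.13, limma adjusted p 1.56e-07). Srp68, which with Srp72 forms the large protein pair of the particle, was the only particle subunit to fall, by 0.65 (SE 0.10, limma adjusted p 9.77e-05), from 46.6 and 51.3 TPM to 29.5 and 32.1 TPM. Srp14, part of the domain that pauses elongation, was the most abundant of the group. It measured 313 and 293 TPM at E12.5, 348 and 354 at E14, 334 and 338 at E15.5, 282 and 321 at E17, and 339 and 328 at P0. Its change of 0.14 (SE 0.08, limma adjusted p 0.137) did not pass as deposited, but it passed under median-of-ratios scaling (0.41, adjusted p 0.00367), after the length and GC correction (0.22, adjusted p 0.00439), and without E17 replicate 1 or E17 replicate 2 (adjusted p 0.043 and 0.0433). Srp9, Srp19 and Srp72 had changes of -0.13, 0.08 and 0.16 and did not pass. Over the 6 targeting genes, 3 rose and 2 fell both under median-of-ratios scaling and after the length and GC correction, and 1 rose and 2 fell under quantile normalization.

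At the channel itself, 4 of the 7 genes fell and 3 did not pass. They were Sec61a1, which encodes the pore-forming subunit, Sec63, a membrane partner that recruits the ER chaperone to the channel, and Ssr1 and Ssr3, subunits of the translocon-associated protein (TRAP) complex. Sec63 measured 86.7 and 81.5 TPM at E12.5, 70.2 and 76.9 at E14, 58.4 and 55.9 at E15.5, 72.8 and 57.5 at E17, and 35.6 and 34.8 at P0, a change of -1.23 (SE 0.11, limma adjusted p 6.75e-07). Ssr3, the most abundant of the 7, went from 769 and 693 TPM at E12.5 through 586 and 653 at E14, 453 and 461 at E15.5, and 499 and 521 at E17 to 389 and 377 at P0. Its change was -0.93 (SE 0.08, limma adjusted p 9.18e-07). Both genes were lowest at birth and showed no overlap between E12.5 and P0. Sec61a1 fell by 1.12 (SE 0.12, limma adjusted p 4.11e-06), from 143 and 152 TPM to 73.8 and 61.5 TPM. Ssr1 fell by 0.64 (SE 0.07, limma adjusted p 4.68e-06). The other 3 genes did not pass. Sec62, the partner of Sec63, had a change of -0.14, the small channel subunit Sec61g -0.04, and Ssr4, a further TRAP subunit, -0.00, with 66.9 and 67.4 TPM at E12.5 and 69.9 and 64.3 TPM at P0. Subunits of 1 complex therefore ended at different levels relative to their start.

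The signal peptidase showed the lowest median of all groups, -1.21 over 4 genes. Spcs2 and Spcs3, accessory subunits, and Sec11a, a catalytic subunit, fell, and Spcs1 did not pass, with a change of 0.04. Spcs2 (GRCm38 chr7:99837569-99863462) measured 187 and 174 TPM at E12.5, 144 and 159 at E14, 107 and 99.7 at E15.5, 111 and 109.9 at E17, and 73.3 and 67.1 at P0, a change of -1.35 (SE 0.08, limma adjusted p 3.22e-08). Spcs3 measured 222 and 209 TPM at E12.5, 169 and 184 at E14, 118 and 112 at E15.5, 139.9 and 135 at E17, and 92.8 and 82.1 at P0, a change of -1.29 (SE 0.08, limma adjusted p 5.13e-08). In both genes every P0 library lay below every earlier one. Sec11a fell by 1.13 (SE 0.09, limma adjusted p 4.46e-07). Spcs1 measured 108 and 104 TPM at E12.5 and 121 and 97.7 TPM at P0, and these overlapped.

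All 6 p24 genes fell from E12.5 to P0, with a median change of -0.81. These proteins span the membrane of early secretory vesicles, where they select cargo such as GPI-anchored proteins. Tmed10 measured 262 and 260.4 TPM at E12.5, 229 and 235 at E14, 177 and 167 at E15.5, 214 and 198 at E17, and 144 and 145 at P0, a change of -0.85 (SE 0.07, limma adjusted p 5.34e-07). Tmed5 (GRCm38 chr5:108106366-108132620) fell most, by 1.26 (SE 0.13, limma adjusted p 2.99e-06). Its libraries measured 48.6 and 46.3 TPM at E12.5, 36.5 and 41.0 at E14, 19.2 and 17.1 at E15.5, 20.7 and 26.0 at E17, and 17.6 and 20.97 at P0. Most of its fall thus lay before E15.5, and its P0 libraries overlapped with those of E15.5 and of E17. Tmed4, Tmed9, Tmed2 and Tmed7 had changes of -0.99, -0.77, -0.76 and -0.60. The count of 6 lower and 0 higher was the same under each scaling tried. Medians were -0.53 under median-of-ratios scaling, -0.73 under quantile normalization and -0.69 after a correction for gene length and GC content. Of all 6048 genes tested 3087 were lower as deposited, and 2283, 2420 and 2485 in the same order.

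Some p24 genes, 1 translocon gene and 1 signal peptidase gene did not go down steadily. The median changes of these 3 groups were below 0 between E14 and E15.5, above 0 from E15.5 to E17 and below 0 again before birth. Those of all genes had the same signs but were smaller (-0.126, 0.015 and -0.101). Between E14 and E15.5, limma called 31 secretory genes (background 51.7%), 25 lower (background 33.3%) and 6 higher (background 18.4%). Among those lower were all 6 p24 genes, 3 of 7 translocon genes and 3 of 4 signal peptidase genes. Under median-of-ratios scaling these counts were 4, 3 and 3, and after the length and GC correction 5, 2 and 3. Of all 6048 genes tested 2015 were lower as deposited, 1555 under median-of-ratios scaling and 1820 after the correction. From E15.5 to E17, limma called 11 (background 25.0%), 6 of them higher (background 14.4%): Ssr1, Spcs3, Tmed2, Tmed7, Tmed10 and the golgin Golgb1. Tmed10 showed the pattern with changes of -0.43, 0.26 and -0.51 over these steps and the last one (limma adjusted p 0.000414, 0.0231 and 0.000325). Spcs3 had changes of -0.62, 0.26 and -0.65 (limma adjusted p 9.1e-05, 0.041 and 0.000182). For Ssr1 the step between E14 and E15.5 did not pass (-0.16), after a fall of 0.35 between E12.5 and E14, and the later changes were 0.29 and -0.42. From E17 to P0, limma called 30 (background 41.7%), 22 lower (background 28.8%) and 8 higher (background 12.9%), and 5 translocon, 3 signal peptidase and 5 p24 genes were among those lower (4, 3 and 3 under median-of-ratios scaling). Under that scaling 1369 of all 6048 genes tested were lower from E17 to P0, against 1744 as deposited. Between E12.5 and E14 limma called 2 (background 8.73%), Ssr1 lower (background 4.78%) and Trappc2l higher (background 3.95%).

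The rise at E17 was small and depended on which libraries were used. Only 1 of 7 translocon and 1 of 4 signal peptidase genes were called higher at E17 than at E15.5 (background 14.4%). These counts were 1 and 0 under median-of-ratios scaling and under quantile normalization. After the length and GC correction they were 3 and 1, and with library weights 0 and 0. Of all 6048 genes tested 871 were higher as deposited, 1002 under median-of-ratios scaling and 915 under quantile normalization. After the correction 1173 were higher, and with library weights 504. With all libraries limma called 3 of the 6 p24 genes higher at E17 than at E15.5, and it called 1 under median-of-ratios scaling, 1 under quantile normalization and 5 after the length and GC correction. Without E17 replicate 1 it called 4, and without E17 replicate 2 it called 2. With library weights, or with either E15.5 library (replicate 1, then replicate 2) left out, limma called 0 p24 genes at this step (1, 3 and 2 at an unadjusted p under 0.05), while their median change was 0.26, 0.28 and 0.21. For the fall before birth, 2 p24, 3 translocon and 3 signal peptidase genes were lower at P0 with library weights, as were 870 of all 6048 genes. The median changes of these 3 groups were -0.43, -0.36 and -0.63 without E17 replicate 1, against -0.04 for all genes. Without E17 replicate 2 they were -0.37, -0.38 and -0.61, against -0.18 for all genes. The fall between E14 and E15.5 coincided with the drop of the globin, choroid plexus, meningeal and vascular markers given above, and their part in it was not tested. At E17 and P0 the meningeal genes summed to between 2.22 and 6.63 TPM. Progenitor markers fell in both intervals, to 498 to 508 TPM at E15.5 and from 294 to 337 TPM at E17 to 175 to 178 TPM at P0, and their part in the result was not tested either.

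**Figure D4:**
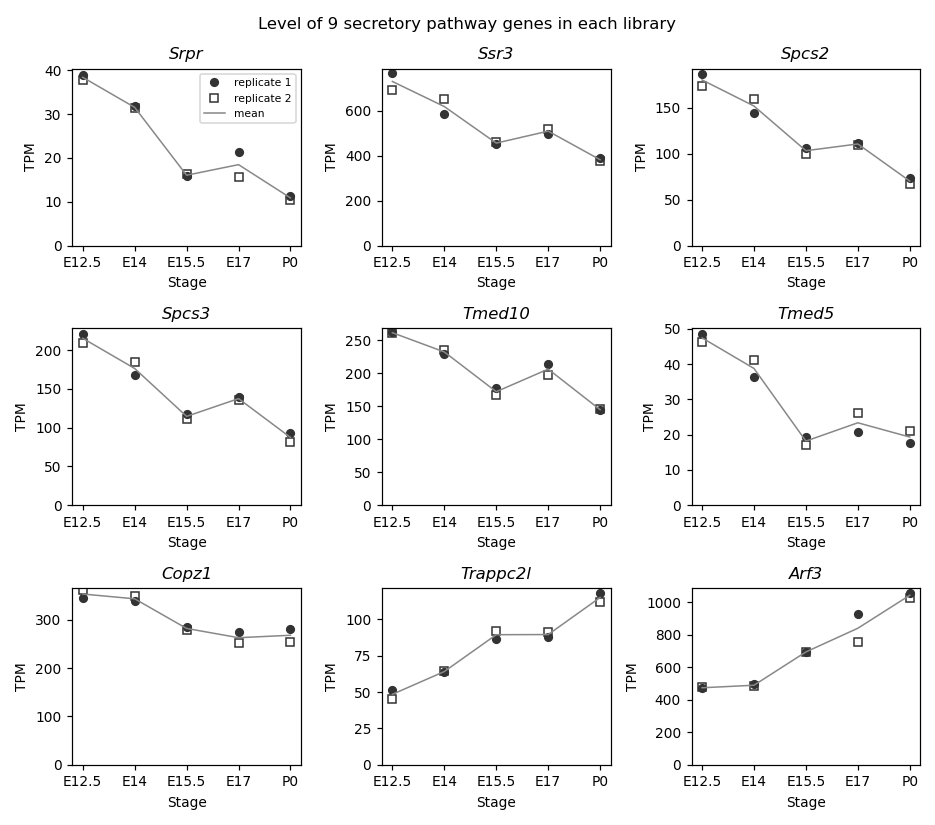
TPM of 9 secretory genes in each library by stage, on linear axes that start at 0. Filled circles are replicate 1, open squares replicate 2, and lines join the stage means. Tmed10 lies at 177 and 167 TPM at E15.5, at 214 and 198 TPM at E17 and at 144 and 145 TPM at P0, whereas Trappc2l is highest at P0.

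Transcripts of the COPII coat, which buds vesicles from the ER, changed in their relative levels. Of its 10 genes, 7 fell and 2 rose between E12.5 and P0, and Sec31a, an outer-shell subunit, did not pass at -0.10. The inner-coat subunit Sec23 is encoded by a pair of paralogues, and they moved in opposite directions. Sec23b (GRCm38 chr2:144556229-144590749) measured 28.7 and 30.9 TPM at E12.5, 25.6 and 24.5 at E14, 15.1 and 15.1 at E15.5, 11.8 and 10.9 at E17, and 9.66 and 10.1 at P0, a change of -1.50 (SE 0.10, limma adjusted p 5.4e-08). Sec23a measured 66.8 and 64.7 TPM at E12.5, 70.6 and 71.3 at E14, 87.1 and 88.8 at E15.5, 78.9 and 89.9 at E17, and 91.2 and 102 at P0, a change of 0.54 (SE 0.09, limma adjusted p 0.000117). Sec23a thus made up 69.9% and 67.7% of Sec23 transcripts by TPM at E12.5 and 90.4% and 91.0% at P0. The ratio of Sec23a to Sec23b within a library rose by 2.04 on the log2 scale (exact permutation test of F over the stages, p 0.00106, the smallest this test can give, adjusted 0.00423 over 8 pairs of paralogues). The ratio is that of TPM + 1 within a library.

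Sec24, the cargo-binding subunit, has 4 paralogues, of which 3 fell. Sec24c was the highest of them, at 53.1 and 57.2 TPM at E12.5, 51.9 and 48.2 at E14, 43.5 and 44.1 at E15.5, 46.2 and 35.5 at E17, and 29.1 and 32.1 at P0, a change of -0.83 (SE 0.12, limma adjusted p 4.72e-05). Sec24d was the lowest, at 5.87 and 6.10 TPM at E12.5, 7.90 and 7.78 at E14, 8.80 and 8.94 at E15.5, 9.57 and 7.62 at E17, and 7.29 and 7.85 at P0. Its rise of 0.30 (SE 0.12, limma adjusted p 0.0378) was lost without 8 of the 10 libraries in turn, for example without E12.5 replicate 1 (adjusted p 0.149), and with a replicate block (adjusted p 0.0543). The ratio of Sec24c to Sec24d fell by 1.12 (exact permutation p 0.00106, adjusted 0.00423). For Sec24a and Sec24b, which fell by 0.44 and 0.56, no change of their ratio was detected at this sample size (-0.12, exact permutation p 0.749). The direction of Sec24a flipped to 0.06 after the length and GC correction and to 0.04 under quantile normalization, where Sec24b did not pass (-0.19, limma adjusted p 0.0601). Sec23ip, a partner of Sec23 at ER exit sites, fell by 1.28 (SE 0.11, limma adjusted p 4.42e-07), from 26.0 and 27.9 TPM at E12.5 through 22.9 and 22.4, 16.3 and 18.3, and 13.4 and 12.7 to 9.93 and 11.2 at P0. Sec13, an outer-shell subunit, was the most abundant COPII gene, at 126 and 134 TPM at E12.5, 139 and 122 at E14, 114 and 117 at E15.5, 87.4 and 98.5 at E17, and 87.8 and 97.0 at P0, a change of -0.49 (SE 0.09, limma adjusted p 0.00047), which did not pass under median-of-ratios scaling (-0.21, adjusted p 0.0848). Sec16a, a scaffold of ER exit sites, fell by 0.84. Sec22a and Sec22b, SNARE proteins of the same transport step, fell by 0.37 and 0.28, and neither passed under median-of-ratios scaling, with Sec22b at 0.037 after the length and GC correction.

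In the COPI coat 5 of the 7 genes fell and 1 rose, with a median of -0.29, close to that of all genes. Copz1, the small zeta subunit and the most abundant, measured 346 and 361 TPM at E12.5, 338 and 349 at E14, 285 and 279 at E15.5, 275 and 251 at E17, and 281 and 255 at P0, a change of -0.40 (SE 0.08, limma adjusted p 0.000593). Copb2, the beta-prime subunit that binds cargo, fell most, by 0.49 (SE 0.09, limma adjusted p 0.000465). Its libraries measured 65.0 and 68.3 TPM at E12.5, 61.7 and 60.4 at E14, 49.9 and 53.7 at E15.5, 41.7 and 44.4 at E17, and 43.7 and 51.0 at P0. The gamma subunit has a pair of paralogues that moved apart. Copg1 rose by 0.23 (SE 0.09, limma adjusted p 0.0363), with 55.6 and 62.0 TPM at E12.5, 57.3 and 54.3 at E14, 56.8 and 57.6 at E15.5, 61.2 and 53.4 at E17, and 68.9 and 68.9 at P0. Copg2 fell by 0.33 (limma adjusted p 0.00873), with 37.9 and 38.1 TPM at E12.5, 35.7 and 35.7 at E14, 34.6 and 34.2 at E15.5, 33.7 and 28.1 at E17, and 29.2 and 30.8 at P0. The direction of Copg2 reversed after the length and GC correction, to a change of 0.131 (limma adjusted p 0.0569). The ratio of Copg2 to Copg1 fell by 0.56 (exact permutation p 0.00529, adjusted 0.00705). The COPI falls depend on scaling: 0 COPI genes fell by limma under median-of-ratios scaling (1 at an unadjusted p under 0.05) and 2 under quantile normalization, and after the length and GC correction 3 rose and 2 fell. The call for Copg1 was lost without 7 of the 10 libraries in turn, for example without E12.5 replicate 1 (adjusted p 0.256).

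The sequences just upstream of these genes were searched for motifs of the factors known to control secretory genes. Promoters of 63 of the 77 genes were found in RefSeq (GRCm38.p6), each running from 250 bases before to 50 bases after the transcript start. The element TGACGTGG, bound by the CREB3L family that drives COPII and COPI genes in secretory tissues, was looked for on both strands and occurred in 5 of the 63 (7.94%): Arf1, Copb1, Copb2, Sec23a and Sec24d. It occurred in 53 of 4841 table genes with a promoter entry (1.09%) and in 193 of 27025 mouse genes (0.714%). The related element TGACGTCA occurred in 1 of 63 (1.59%), Cope, against 3.86% of table genes. The ER stress elements ERSE (CCAAT and CCACG with 9 free bases between them) and ERSE-II (ATTGG and CCACG with 1 free base between them) occurred in 0 of 63, against 0.207% and 0.103% of table genes, and CCAAT, which forms part of the former, in 27 of 63 (42.9%) against 42.6%. Sec23a, Copb2 and Sec24d are shown because among the 5 genes with TGACGTGG they changed most from E12.5 to P0, and they include a gene that rose, one that fell as deposited but not under median-of-ratios scaling (Copb2, -0.22, limma adjusted p 0.0585) and one whose rise was not stable (Sec24d). Each is 200 bases, 5′ to 3′ on the strand of the gene, ending 20 bases into the transcript, with the match in capitals.
Sec23a (GRCm38.p6 chr12:59011998-59012197, minus strand): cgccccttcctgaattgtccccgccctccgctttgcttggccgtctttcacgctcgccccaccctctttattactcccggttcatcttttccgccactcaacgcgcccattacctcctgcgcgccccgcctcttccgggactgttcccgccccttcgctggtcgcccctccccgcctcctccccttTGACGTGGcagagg
Copb2 (GRCm38.p6 chr9:98563551-98563750, plus strand): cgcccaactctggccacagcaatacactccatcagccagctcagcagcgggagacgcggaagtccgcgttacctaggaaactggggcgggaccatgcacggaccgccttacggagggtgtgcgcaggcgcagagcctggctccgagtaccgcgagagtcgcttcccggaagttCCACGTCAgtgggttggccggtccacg
Sec24d (GRCm38.p6 chr3:123267316-123267515, plus strand): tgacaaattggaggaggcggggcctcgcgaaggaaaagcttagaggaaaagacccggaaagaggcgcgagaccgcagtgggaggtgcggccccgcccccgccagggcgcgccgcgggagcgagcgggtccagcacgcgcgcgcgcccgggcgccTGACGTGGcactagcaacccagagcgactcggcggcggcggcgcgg
The match in Sec23a and Sec24d is on the gene's own strand, and that in Copb2 on the other strand, where it reads CCACGTCA. These matches describe letters and do not show binding. Of the CREB3L and unfolded protein response factors looked up, 1 of 12 was in the table, Atf6b, an ER stress sensor, which fell by 0.75.

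TRAPP, a tether and exchange factor for vesicles arriving at the Golgi, was divided by subunit. Between E12.5 and P0, 8 of its 13 genes rose and 3 fell. The 7 small core subunits, a division known for the complex but applied here after the values had been seen, were Trappc1, Trappc2, Trappc2l, Trappc3, Trappc4, Trappc5 and Trappc6b. Of these 6 rose and 1 fell, with a median of 0.71. The same count held under each scaling tried (median 0.99 under median-of-ratios scaling and 0.76 after the length and GC correction). Of all 6048 genes tested 1641 rose as deposited, 2292 under median-of-ratios scaling and 2373 after the correction. Of the 6 larger subunits 2 rose and 2 fell, with a median of -0.21. Trappc2l (GRCm38 chr8:122611640-122616660) rose most, at 51.4 and 45.5 TPM at E12.5, 63.5 and 64.8 at E14, 86.6 and 92.2 at E15.5, 87.7 and 91.4 at E17, and 118 and 112 at P0, a change of 1.23 (SE 0.08, limma adjusted p 7.14e-08). It rose at every step but the one between E15.5 and E17. Trappc3, the most abundant subunit, measured 150.3 and 147 TPM at E12.5, 168 and 166 at E14, 207 and 224 at E15.5, 202 and 216 at E17, and 243 and 245 at P0, a change of 0.71 (SE 0.07, limma adjusted p 2.65e-06).

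Trappc6b, Trappc2, Trappc4 and Trappc5 rose by 0.80, 0.72, 0.66 and 0.30. Trappc2, a paralogue of Trappc2l, measured 46.1 and 43.7 TPM at E12.5, 49.9 and 53.9 at E14, 58.1 and 57.0 at E15.5, 51.8 and 65.3 at E17, and 73.3 and 75.9 at P0. The ratio of Trappc2l to Trappc2 rose by 0.51 (exact permutation p 0.0222, adjusted 0.0254), and the call was lost without any 1 of the 4 libraries of E12.5 and E14 (adjusted p 0.052 to 0.0883). Trappc1 was the core subunit that fell, by 0.61 (limma adjusted p 1.45e-05), from 117 and 122 TPM to 79.3 and 76.1 TPM. Trappc13, a subunit of the TRAPPIII form, fell most, by 0.72 (SE 0.10, limma adjusted p 5.16e-05), at 67.8 and 67.5 TPM at E12.5, 63.6 and 64.3 at E14, 56.4 and 54.1 at E15.5, 43.1 and 50.8 at E17, and 37.2 and 44.4 at P0. Of the subunits specific to the TRAPPII form, Trappc9 and Trappc10 rose by 0.45 and 0.35. Trappc11, of TRAPPIII, fell by 0.45, while Trappc8 (-0.26) and Trappc12 (-0.17) did not pass. The core subunits have short coding sequences, with a median of 495 bases against 3408 for the others, and across the 13 genes the change had a Pearson r of -0.47 with log2 coding length. Over all 6048 genes that r was -0.07. Trappc2l lies wholly inside the annotated gene Gm20388 on the same strand, so its counts may be shared with it, and Trappc4 overlaps Rps25, an abundant ribosomal protein gene, on the opposite strand.

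The Arf GTPases, which recruit coats and adaptors to Golgi and other membranes, had the highest summed TPM of the groups, and 4 of 6 rose and 2 fell. Arf3 (GRCm38 chr15:98736634-98763214), an Arf of the trans-Golgi network, rose most, at 471 and 475 TPM at E12.5, 496 and 482 at E14, 693 and 694 at E15.5, 924 and 755 at E17, and 1059 and 1026 at P0, a change of 1.14 (SE 0.09, limma adjusted p 4.64e-07). Arf2, which in mouse joins Arf1 and Arf3 in class I, measured 244 and 237 TPM at E12.5, 242 and 257 at E14, 302 and 301 at E15.5, 327 and 326 at E17, and 467 and 466 at P0, a change of 0.95 (SE 0.07, limma adjusted p 1.27e-07). The libraries of both genes were highest at birth. Arf1, the classical activator of COPI recruitment, measured 790.1 and 821 TPM at E12.5, 787 and 742 at E14, 784 and 772 at E15.5, 821 and 797 at E17, and 949 and 905 at P0. Its rise of 0.20 (SE 0.08, limma adjusted p 0.0317) was lost without 6 of the 10 libraries in turn, for example without E12.5 replicate 1 (adjusted p 0.165), and under quantile normalization (adjusted p 0.101).

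The class II pair moved in opposite directions. Arf5 rose by 0.69 (SE 0.10, limma adjusted p 4.01e-05), at 265 and 277 TPM at E12.5, 298 and 275 at E14, 329.7 and 326 at E15.5, 332 and 347 at E17, and 485 and 394 at P0. Arf4 fell by 0.35 (SE 0.07, limma adjusted p 0.00119), at 907 and 896 TPM at E12.5, 905 and 925 at E14, 854 and 846 at E15.5, 786 and 820.4 at E17, and 719 and 699 at P0. Arf4 had been the most abundant Arf at E12.5, with 31.0% and 30.6% of Arf TPM, and held 18.7% and 19.1% at P0. The share of Arf3 went from 16.1% and 16.2% to 27.5% and 28.0%, the highest of the family at P0. The ratio of Arf5 to Arf4 rose by 1.03 (exact permutation p 0.00212, adjusted 0.00423), that of Arf3 to Arf1 by 0.94 (0.00212, adjusted 0.00423, exact permutation) and that of Arf2 to Arf1 by 0.75 (0.00317, adjusted 0.00508, exact permutation). Arf6, which acts at the plasma membrane and endosomes rather than the Golgi, fell by 0.44 (limma adjusted p 0.000255), at 246 and 224 TPM at E12.5, 219.9 and 223 at E14, 191 and 212 at E15.5, 181 and 175 at E17, and 172 and 173 at P0. The fall of Arf4 did not pass under median-of-ratios scaling (-0.07) or after the length and GC correction (-0.06), and that of Arf6 did not under median-of-ratios scaling (-0.17).

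**Figure D5:**
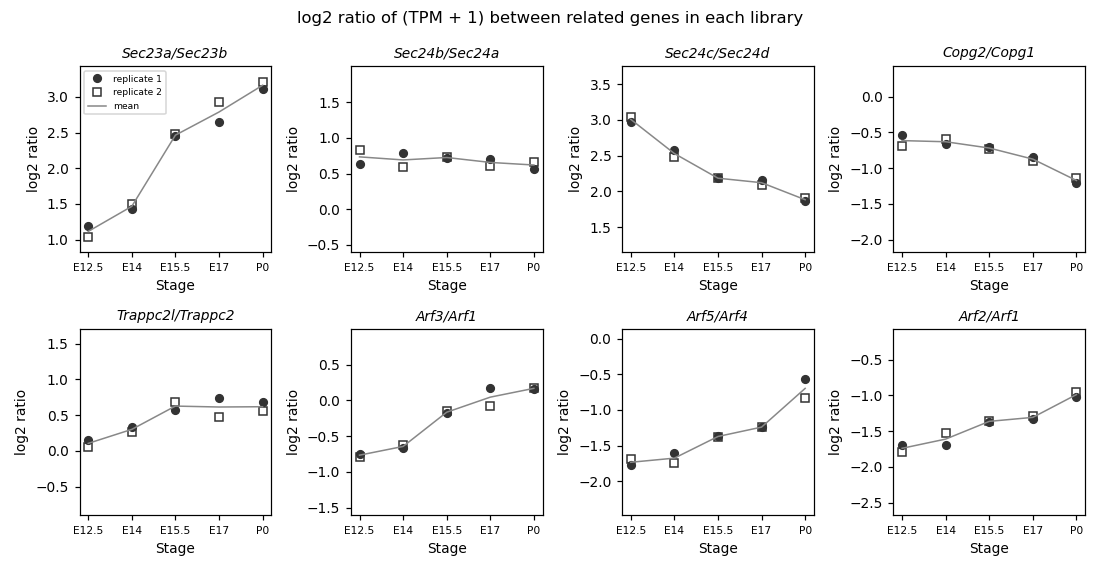
Log2 ratio of paralogous secretory genes within each library by stage, for the 8 pairs tested. Filled circles are replicate 1, open squares replicate 2, and lines join the stage means. The ratio of Sec23a to Sec23b ends 2.04 above its E12.5 mean, and that of Sec24b to Sec24a ends 0.12 below it.

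The COG complex and the golgins, which tether vesicles within the Golgi, had medians near that of all genes. Of the 8 COG genes 5 fell and 3 did not pass, with a median of -0.28. Under median-of-ratios scaling 3 fell and 1 rose, under quantile normalization 2 fell and 2 rose, and after the length and GC correction 2 fell and 1 rose, with medians of -0.01, 0.02 and -0.03. Cog2 fell most, by 0.64 (SE 0.12, limma adjusted p 0.00057), at 18.9 and 19.8 TPM at E12.5, 17.4 and 16.8 at E14, 14.9 and 14.5 at E15.5, 16.5 and 12.47 at E17, and 12.4 and 11.8 at P0. Cog1 and Cog5 fell by 0.59 and 0.57, and Cog4 by 0.31. Cog6, the most abundant, measured 29.3 and 27.7 TPM at E12.5, 31.3 and 30.5 at E14, 30.8 and 31.0 at E15.5, 31.8 and 27.5 at E17, and 24.7 and 23.2 at P0. Its fall of 0.24 (limma adjusted p 0.0391) did not hold, with values of 0.025 to 0.135 under the other scalings and the length and GC correction, and the call was lost without 7 of the 10 libraries in turn (for example without E12.5 replicate 1, adjusted p 0.187). Cog3, Cog7 and Cog8 did not pass. Of the 7 golgins 5 fell and 1 rose, with a median of -0.37. Under median-of-ratios scaling, quantile normalization and the length and GC correction, 2, 2 and 3 golgins fell and 1 rose in each, with medians of -0.10, -0.01 and -0.06. Golga4 (GRCm38 chr9:118506267-118582519), a trans-Golgi golgin, fell by 1.23 (SE 0.16, limma adjusted p 2.3e-05), at 25.4 and 24.5 TPM at E12.5, 22.8 and 25.6 at E14, 17.2 and 16.8 at E15.5, 24.6 and 16.2 at E17, and 9.34 and 10.8 at P0. Golga2, the cis-Golgi matrix protein GM130, rose by 0.35 (SE 0.12, limma adjusted p 0.0219), at 18.1 and 19.4 TPM at E12.5, 19.2 and 17.8 at E14, 21.5 and 21.3 at E15.5, 28.6 and 22.0 at E17, and 23.0 and 25.3 at P0. That call was lost without either E12.5 library (adjusted p 0.121 and 0.0503) or P0 replicate 2 (adjusted p 0.124).

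Golga7, a small partner of a palmitoyltransferase and far more abundant than the long golgins, measured 453 and 433 TPM at E12.5, 435 and 461 at E14, 384 and 369 at E15.5, 338 and 379 at E17, and 351 and 332 at P0, a change of -0.37 (limma adjusted p 0.00122), which did not pass under median-of-ratios scaling (-0.10, adjusted p 0.419). Golgb1 (giantin), Golga1 and Golga5 fell by 0.72, 0.38 and 0.36, and Golga3 (-0.24) did not pass. The E17 library of replicate 1 was the higher of the pair for 8 of 8 COG genes and 6 of 7 golgins. It was also the higher for 8 of 10 COPII genes, but for 1 of 7 core TRAPP subunits. These counts give direction and not size. The rise of Golgb1 at E17, 0.51 (limma adjusted p 0.0483), was 0.21 (adjusted p 0.187) without that library. The fall of Golga4 from E17 to P0 was -0.92 with it and -0.64 without it (limma adjusted p 0.000202), so it remained called. From E17 to P0, 4 golgins fell with all libraries and 2 without E17 replicate 1, and 3 COPII genes fell with all libraries and 0 without it (2 at an unadjusted p under 0.05). Sec14l1, a lipid-binding Sec14-like protein caught by the naming rule and not a part of the coat or channel machinery, had a change of -0.08 (limma adjusted p 0.5), with 101 and 107 TPM at E12.5, 105 and 108 at E14, 96.3 and 99.6 at E15.5, 120 and 94.5 at E17, and 98.1 and 99.1 at P0.

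Genes outside the naming rule that act at the same steps were counted from fixed lists. Of 38 further ER entry genes looked up, such as the oligosaccharyltransferase and the ER membrane complex, 27 were in the table, of which 2 rose and 14 fell between E12.5 and P0, with a median of -0.28. As over all genes 27.1% rose and 51.0% fell, with a median of -0.27, the counts of these lists are to be read against those shares. Stt3a, a catalytic subunit of the oligosaccharyltransferase, fell by 1.71 (limma adjusted p 9.94e-08), from a mean of 45.5 TPM to 13.2 TPM, and Tusc3, an oxidoreductase subunit of the same enzyme family, rose by 0.92. Of 48 further ER-to-Golgi genes 38 were in the table, and 8 rose and 21 fell, with a median of -0.26. Lman2, a lectin that carries glycoproteins, fell by 1.37, and Napb, a neuronal SNARE disassembly factor, rose by 2.36, from 36.4 to 191 TPM. Of 36 Arf regulators and other Golgi genes 33 were in the table, and 10 rose and 12 fell, with a median of 0.10. Acap2, an Arf GTPase-activating protein, fell by 1.13, and Cyth3, an Arf exchange factor, rose by 1.51, from 43.4 to 125.3 TPM.

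Several members share their locus with another gene. In the GENCODE annotation, 43 of the 77 overlap another gene, 21 a protein-coding one and 14 a gene on the same strand. Srpr overlaps Fam118b and Foxred1 and Spcs2 overlaps Xrra1 on the opposite strand, and Tmed7 overlaps Ticam2 on the same strand. Copg2 overlaps Mest on the opposite strand, and Trappc9 overlaps Peg13 on the same strand. The library kit keeps strand, but no source used here says whether the counting used it, so reads from such genes cannot be told apart with certainty.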

How the data were processed

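RNA from 10 neocortex libraries was measured as TPM. Per the labels' protocols, frozen tissue was ground, lysed with detergent and cleared by centrifugation, and poly(A) RNA went into stranded libraries. The deposited file gives TPM, 1 column per library, for 6147 genes, and no read counts, so read depth is unknown. STAR and Subread, and the genome build GRCm38.p5, are named in the submitters' processing notes. No source used here gives the gene lengths, the annotation or the rule for choosing rows. The listed genes sum to 68.9% to 71.7% of all TPM.

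Stages were read from the labels. A mean of at least 1 TPM was required, which 99 genes missed, and log2(TPM + 1) was fitted by limma 3.58.1 (R 4.3.3). The model had a mean for each stage, 5 residual degrees of freedom and a variance trend, with adjustment over 6048 genes. Fold changes understate those of low genes. Ratios of paralogues were tested by an exact permutation test of F over the stages (8 of 14 listed pairs were in the table). Positions came from GENCODE M21 (GRCm38), and promoters from RefSeq GRCm38.p6. Alternatives were other pseudocounts, filters, scalings, weights, a replicate block, leaving out each library, and, chosen after seeing the data, a length and GC correction. The fit was tested on simulated data. Genes named with values in every library were, per group, the called gene with the largest rise and fall, the most abundant, paralogue pairs, and those called at 3 or more steps. The members and lists were chosen with earlier results of these data known. Figures used matplotlib 3.10.9 under Python 3.11.15.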

Additional observations from a re-analysis of the deposited data

How the results depend on the processing

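The counts of secretory genes called across the stages (59) and from E12.5 to P0 (60) stayed within 1.5 times of these values under every alternative run, 47 to 69 and 49 to 66. Single steps were less stable. From E12.5 to E14 the count was 2, with 22 under library weights, 10 after the length and GC correction, 4 under quantile normalization and 0 to 17 when 1 library was left out (0 without any library of E12.5 or E14, 17 without either of E17). From E14 to E15.5 it was 31, with 61 under library weights and 18 to 50 without 1 library (18 or 19 without any of E14 or E15.5, 50 without either of E17). From E15.5 to E17 it was 11, with 1 under library weights, 28 after the length and GC correction and 0 to 28 without 1 library (0 and 1 without E15.5 replicates 1 and 2, 5 without either of E12.5, 7 without either of E14, 28 without E17 replicate 2). Between E17 and P0 the count was 30, with 12 under library weights and 15 to 46 without 1 library (15 without P0 replicate 1, 46 without E17 replicate 2). Over all 6048 genes tested the counts moved too. From E12.5 to E14 they were 528, with 1327 after the length and GC correction and 895 under quantile normalization. From E15.5 to E17 they were 1514, with 758 under library weights and 2455 after the correction. At that step they moved the same way as the secretory counts when an E15.5 or E17 library was left out. Between E17 and P0 they were 2525, with 1145 under library weights. The ratio of Trappc2l to Trappc2 ranged from 0.45 to 0.58 without 1 library. Direction flipped for Cog6 (0.135 length and GC, 0.025 median-of-ratios, 0.045 quantile), Sec14l1 (0.126, 0.199 and 0.042 in that order), Sec24a (0.063 length and GC, 0.042 quantile) and, after the length and GC correction alone, Copg2 (0.131) and Sec22b (0.037), while Sec22a went to 0.000. After that correction 25 secretory genes rose and 31 fell from E12.5 to P0 (44.6% higher). Between E14 and E15.5 the higher share was 19.4% (6 and 25), 46.4% under median-of-ratios scaling (13 and 15), 41.9% under quantile normalization (13 and 18) and 48.6% after the correction (18 and 19). From E15.5 to E17 it was 54.5% (6 and 5), 37.5% (3 and 5), 27.3% (3 and 8) and 60.7% (17 and 11) in the same order, and from E17 to P0 26.7% (8 and 22), 46.4% (13 and 15), 45.2% (14 and 17) and 53.8% (21 and 18). The counts over all genes tested, higher then lower, follow in the same order. Between E14 and E15.5 they were 1113 and 2015, 1576 and 1555, 1564 and 1629, and 1852 and 1820. From E15.5 to E17 they were 871 and 643, 1002 and 751, 915 and 971, and 1173 and 1282. From E17 to P0 they were 781 and 1744, 1292 and 1369, 1256 and 1190, and 1718 and 1473. From E12.5 to P0 they were 2373 and 2485 after the correction. The cause of these shifts was not tested. The correlation of same-numbered deviations ran from -0.375 to 0.107, which cannot settle whether the replicate numbers pair the libraries. A replicate block gave 54 called across the stages, 59 from E12.5 to P0, and 2, 28, 8 and 27 at the 4 steps. With 2 libraries per stage and no read counts, precision rests on a spread shared by all stages.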

Other observations

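Within single complexes, levels of the genes in TPM were far from equal. In the COPI coat at E12.5 the highest gene was Copz1 at 346 and 361 TPM and the lowest Copg2 at 37.9 and 38.1 TPM. Copg2 shares the gamma subunit with its paralogue Copg1 and held 40.6% and 38.1% of their TPM. In COPII, Sec13 stood at 126 and 134 TPM and Sec24d at 5.87 and 6.10 TPM. Sec24d shares its subunit with Sec24a, Sec24b and Sec24c and held 6.54% and 6.38% of Sec24 TPM. These COPI and COPII gaps are therefore given between genes, and levels summed over whole subunits were not compared. In the signal recognition particle, Srp14 stood at 313 and 293 TPM and Srp68 at 46.6 and 51.3 TPM. Among the translocon genes, Ssr3 stood at 769 and 693 TPM and Ssr4, which encodes another subunit of the same TRAP complex, at 66.9 and 67.4 TPM, so these differed between genes far more than between the 2 libraries. The ER chaperone genes of the further ER entry list were also lower at P0. Hspa5 (BiP), the main ER lumenal Hsp70, fell by 1.71 from E12.5 to P0 (limma adjusted p 5.25e-09). It measured 204.6 and 202.6 TPM at E12.5, 153.3 and 167.0 at E14, and 74.9 and 70.7 at E15.5. At E17 it measured 85.2 and 95.8 TPM, and at P0 64.2 and 59.2 TPM. Between E14 and E15.5 it fell by 1.13. It was higher at E17 than at E15.5 by 0.31 (limma adjusted p 0.0231), and fell by 0.54 from E17 to P0. Hyou1, a co-chaperone of Hspa5, fell by 1.68 (limma adjusted p 4.42e-07). These 2 chaperone genes were chosen after their values were seen.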
